A study of Mus musculus with 17 samples.

Results

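The genes described here are the collagens, the laminins and 8 further genes of basement membranes and matrix (Nid1, Nid2, Fn1, Hspg2, Agrn, Sparc, Fbn1 and Fbn2), as measured in retinal pigment epithelium (RPE) of the mouse. They were chosen by symbol alone: every gene named as a collagen chain (44 genes) or as a laminin alpha, beta or gamma chain (11 genes), and the 8 named above, which made 63 members among 22253 genes. Expression was measured by SMART-Seq in 17 libraries from Serpine3GFP/+ mice aged 2 months, in which the GFP reporter marks cells that use the Serpine3 gene. All animals in all groups carried this allele on 1 chromosome, and no animal without it was used here. Single RPE cells were released with hyaluronidase and trypsin and picked by hand, and each library was a pool that the labels give as 10 to 15 cells. The study's methods give a lower range of cells per pool, which overlaps that of the labels. There were 6 libraries of GFP+-RPE cells, which came from the periphery of the eyecup, 5 of peripheral GFP–-RPE cells and 6 of central GFP–-RPE cells. The libraries came from 7 animals or pools, called mice 1 to 7 here, of which 5 gave all 3 groups; the labels of mouse 1 carry a pair of animal numbers. The animal numbers in the labels fall into 2 runs, mice 1 to 3 and mice 4 to 7.

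The RPE sits on Bruch membrane, a layered sheet whose inner face is the basement membrane of the RPE and whose outer face is that of the choroidal capillaries. A basement membrane is built from a collagen IV network and a laminin network, joined by nidogens and by the heparan sulfate proteoglycans perlecan (Hspg2) and agrin. Collagen chains assemble in trimers, and so do laminins, which take an alpha, a beta and a gamma chain each. Messenger RNA in RPE cells is a measure of what these cells make, and does not show the matrix that other cells laid down.

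Total counts per library ranged from 9896118 to 22467079. Serpine3 had 107 to 576 counts in the GFP+ libraries and 0 to 5 in all others, as the labels require. Mitochondrial genes took 0.71% to 17.2% of the counts of GFP+ libraries, 12.5% to 30.4% of those of peripheral and 13.7% to 47.3% of those of central GFP–-RPE, and the central library of mouse 5 stood apart with 47.3% mitochondrial counts and 5392 genes at 10 counts or more, against 6430 to 10543 in the other libraries. Of 15 genes of RPE identity, 13 had at least 10 counts in at least 9 libraries, led by Ttr, while Best1 had at most 2 counts. Of 12 fibroblast and choroid stroma genes, 3 had at least 10 counts in at least 9 libraries. Among the others, Dpt had 0 counts, and Pdgfra and Dcn had at most 3 and 6. Ogn of the same list had 97 to 6694 counts and was present in all 17 libraries. Of 12 endothelial genes, 1 had at least 10 counts in at least 9 libraries, and the list was led by Plvap. Cdh5 had at most 2 counts, and Pecam1 had 52 in GFP+ mouse 3 and at most 2 elsewhere.

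The promoters of the 2 collagen VIII genes and the stretch between the head-to-head genes of the collagen IV chains Col4a3 and Col4a4 are printed because these chains made up most of the collagen message in every library. Sequences are those of RefSeq on GRCm38.p6, on the strand of the gene named and ending at the base before its RefSeq start: chr16:57754738-57754987 (minus strand) for Col8a1, chr4:126286544-126286793 (plus strand) for Col8a2, and chr1:82586850-82586950 (minus strand) for Col4a4. The last holds the 71 bases between the outermost annotated starts of Col4a4 and Col4a3 and the first 30 bases of Col4a3. Capitals mark the GC box GGGCGG or its reverse complement.
Col8a1: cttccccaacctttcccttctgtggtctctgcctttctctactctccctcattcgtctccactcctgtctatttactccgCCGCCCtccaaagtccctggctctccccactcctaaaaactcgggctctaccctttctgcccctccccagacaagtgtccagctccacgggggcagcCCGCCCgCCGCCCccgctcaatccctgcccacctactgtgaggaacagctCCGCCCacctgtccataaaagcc
Col8a2: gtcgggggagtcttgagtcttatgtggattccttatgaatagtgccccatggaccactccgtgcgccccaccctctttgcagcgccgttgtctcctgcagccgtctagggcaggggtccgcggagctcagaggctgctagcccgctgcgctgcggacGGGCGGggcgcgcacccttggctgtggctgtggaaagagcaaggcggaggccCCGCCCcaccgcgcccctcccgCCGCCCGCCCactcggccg
Col4a4: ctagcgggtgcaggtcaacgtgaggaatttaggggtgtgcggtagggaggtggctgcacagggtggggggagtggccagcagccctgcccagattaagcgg

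Both collagen VIII promoters held 4 GC boxes within 250 bases, and at least 1 was present in 32.7% of the 32851 promoters of the RefSeq table over the same length. The share of promoters with 4 or more was not counted. In Col8a1 they began 170, 73, 66 and 23 bases before the start, and in Col8a2 93, 41, 19 and 15 bases before it, the last pair of which overlap. The stretch between Col4a4 and Col4a3 held none, against 24.8% of all promoters over the same 101 bases. Further motifs were searched on both strands, CACGTG (the E-box that MITF family factors can bind), TAATCC (bound by OTX factors), CCAAT and TATAAA, and none was present in the 3 stretches. They were present in 6.02%, 6.25%, 33.8% and 12.4% of all promoters over 250 bases, and in 3.19%, 2.33%, 19.0% and 5.59% over 101 bases. A match says only that these letters are in the window. Of the 63 members, 45 had a promoter in the table.

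Of the 63 members, 9 had at least 10 counts in all 17 libraries: Col8a1, Col8a2, Col4a3, Col4a4, Col9a3, Col18a1, Sparc, Nid2 and Fbn1. This was 14.3% of the members, and 13.6% of all genes in the table did the same. Another 4 members (Lamb1, Lamb2, Col4a5 and Col5a2) reached 10 counts in 9 to 16 libraries and 21 in 1 to 8 libraries, whereas 25 stayed under 10 counts in every library and 4 (Col6a1, Col6a2, Col23a1 and Nid1) had no count at all. The first 9 genes took 96.2% of the CPM (counts scaled to a common library size by the TMM method of edgeR) of all members. Their exonic length had a median of 5108 bases and that of the 25 genes under 10 counts a median of 5957 bases, and the part of length in detection was not tested.

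**Figure D1:**
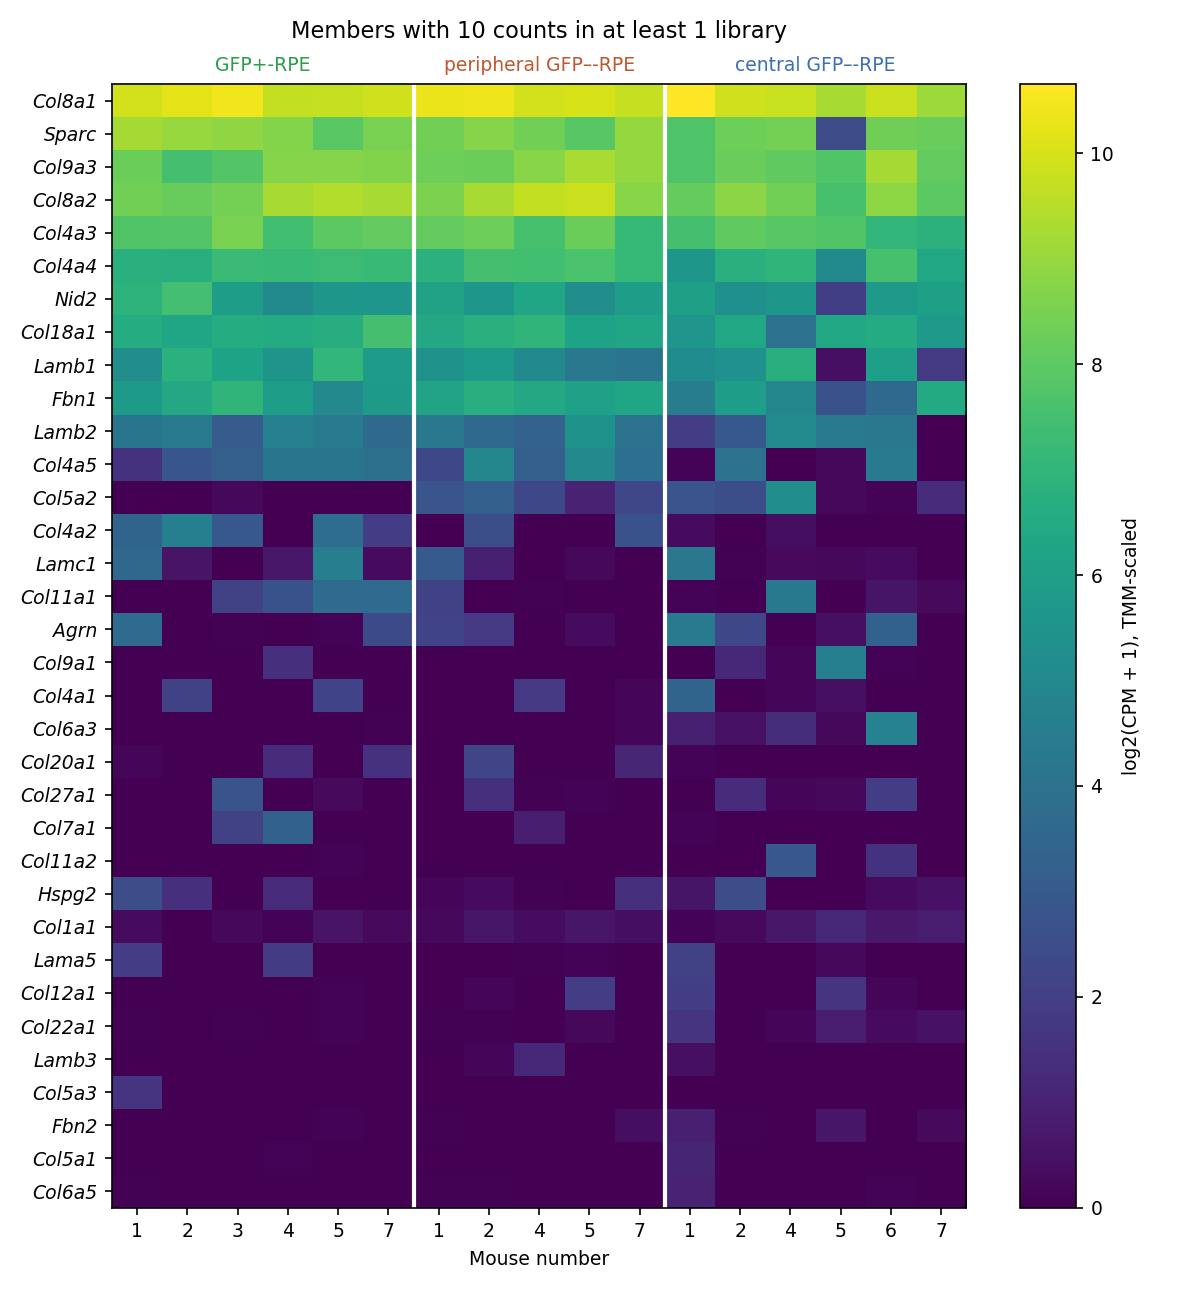
Expression of the 34 members with 10 counts or more in at least 1 library, as log2(CPM + 1), with 1 column per library and genes ordered by mean CPM per kilobase. The upper 12 rows carry signal in nearly every library, the central library of mouse 5 is dark for Sparc, Nid2 and Lamb1, and below Col4a5 most cells of the map are at or near 0.

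Levels of different genes were compared per kilobase of exons. Col8a1 was highest, with a mean of 197 CPM per kb over the 17 libraries, followed by Sparc (128), Col9a3 (116) and Col8a2 (104). Together these 4 genes took 76.3% of the CPM of all members. The order among them was not fixed, since Col8a1 led in 12 libraries, Sparc in 3 and Col9a3 in 2. In GFP+-RPE the levels of Col8a1, Sparc, Col9a3 and Col8a2 were 201 ± 43.0, 159 ± 44.8, 107 ± 35.0 and 106 ± 39.3 CPM per kb (SD, n = 6), so that Col9a3 and Col8a2 could not be ordered and Sparc lay within 1 SD of Col8a1. Col4a3 came next at 26.6 CPM per kb, below all 4 of them in 16 of 17 libraries, the exception being the central library of mouse 5. Col4a4, Nid2 and Col18a1 (12.8, 12.4 and 12.4 CPM per kb) could not be ordered beyond their spread. Lamb1 (8.74), Fbn1 (5.08), Lamb2 (2.89) and Col4a5 (1.69) closed the list of the 12 highest, and Col5a2, at 0.654, came after them.

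**Figure D2:**
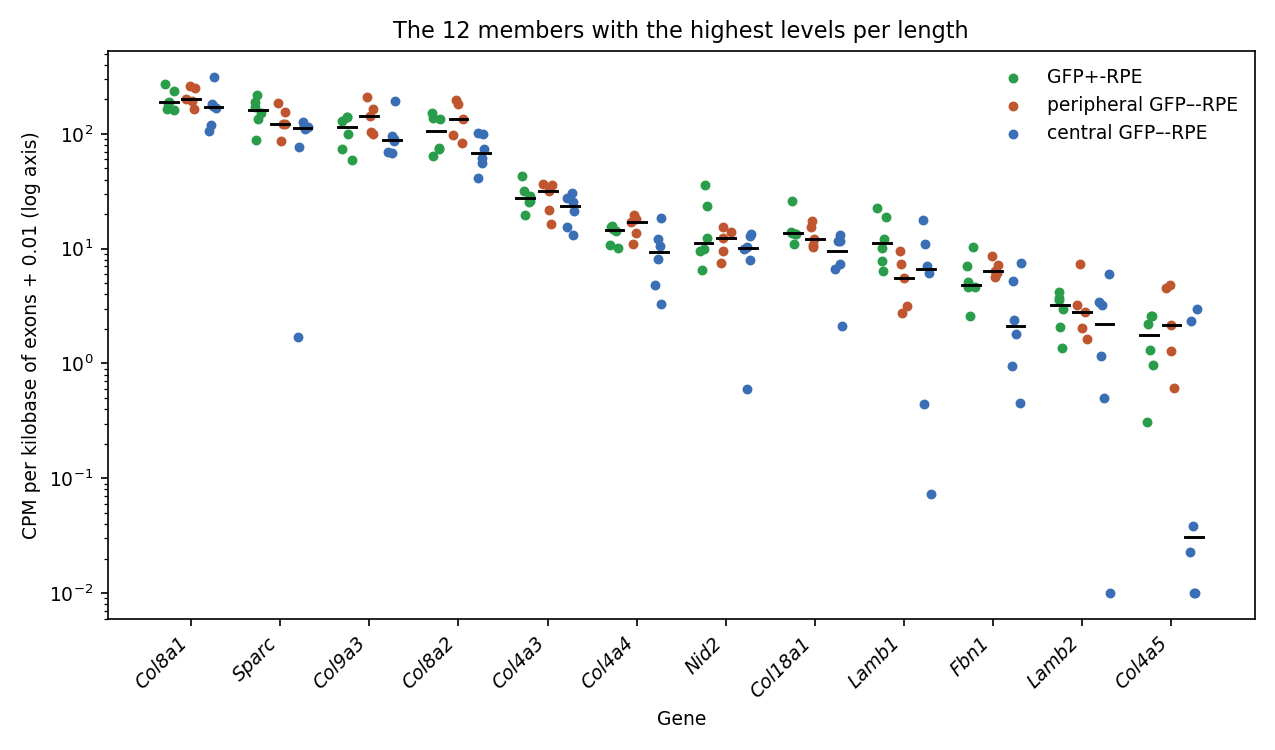
CPM per kilobase of exons, with 0.01 added, on a log axis for the 12 members with the highest levels; each point is a library, colored by group, and bars are group medians. The first 4 genes lie near or above 100 in most libraries, and the points far below the others belong to central libraries.

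Collagen VIII forms the short-chain hexagonal lattice known from Descemet membrane and from Bruch membrane. Col8a1 (chr16:57624258-57754737) ranged from 826 to 1377 CPM in GFP+-RPE with a median of 960. In peripheral GFP–-RPE it was at 1283, 1335, 984, 1020 and 842 CPM in mice 1, 2, 4, 5 and 7. In central GFP–-RPE it ranged from 544 to 1612 CPM with a median of 871. The 3 ranges overlapped, and the log2 fold changes were 0.11 (SE 0.26) for GFP+-RPE against central, −0.07 (SE 0.20) for GFP+-RPE against peripheral and 0.19 (SE 0.28) for peripheral against central GFP–-RPE. Per length, Col8a1 exceeded its partner Col8a2 in all 17 libraries. Their ratio was between 1.07 and 3.70 in GFP+ libraries, between 1.01 and 3.03 in peripheral and between 1.71 and 5.12 in central GFP– libraries. In GFP+-RPE it was 2.57 to 3.70 in mice 1 to 3 and 1.07 to 1.38 in mice 4, 5 and 7. In peripheral GFP–-RPE it was 1.93 to 3.03 in mice 1 and 2 and 1.01 to 1.69 in mice 4, 5 and 7. The 2 runs of animals thus did not overlap in either group. In central GFP–-RPE they did (1.83 to 5.12 and 1.71 to 2.88).

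Col8a2 (chr4:126286793-126314330) was the member with the lowest unadjusted p of peripheral against central GFP–-RPE. In peripheral GFP–-RPE it was at 373, 608, 820, 888 and 437 CPM in mice 1, 2, 4, 5 and 7. In central GFP–-RPE it ranged from 186 to 457 CPM with a median of 303, and in GFP+-RPE from 286 to 687 with a median of 473. The means of 625 ± 227 (SD, n = 5) and 325 ± 110 CPM (SD, n = 6) gave a log2 fold change of 0.90 (SE 0.30, edgeR's adjusted p = 1.00), which is no call. The peripheral libraries of mice 1 and 7 lay inside the central range. Within each of the 5 mice with both libraries the peripheral one was higher, the central values being 277, 450, 329, 186 and 251 CPM in mice 1, 2, 4, 5 and 7. These are the values by which the gene was singled out, and the share of all genes that did the same was not counted. The mouse was also fitted as a replicate block, using only mice with a library in both groups, which gave a log2 fold change of 0.96 (adjusted p = 0.996). Within the runs the groups overlapped both in mice 1 to 3 (means 490 and 363 CPM) and in mice 4 to 7 (means 715 and 306 CPM). In GFP+-RPE, Col8a2 was at 286 to 341 CPM in mice 1 to 3 and at 606 to 687 in mice 4, 5 and 7.

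The collagen IV message of these cells was mostly Col4a3 and Col4a4. These are 2 chains of the alpha3-alpha4-alpha5 trimer, the network affected in Alport syndrome. The chains of the alpha1-alpha2 trimer found in nearly all basement membranes had far less. Together Col4a3, Col4a4 and Col4a5 took 90.1% to 100% of the collagen IV message per length in each of the 17 libraries, and Col4a1 with Col4a2 at most 9.89%. Col4a5 alone took at most 8.08%, in central mouse 6. A sum of message does not show which trimers were formed. Col4a3 (chr1:82586921-82722059) ranged from 169 to 369 CPM in GFP+-RPE with a median of 236. It was at 274, 312, 187, 309 and 141 CPM in peripheral GFP–-RPE of mice 1, 2, 4, 5 and 7, and from 113 to 263 with a median of 200 in central GFP–-RPE. The groups overlapped, and no log2 fold change of Col4a3 was over 0.31 in the 3 comparisons. Col4a4 (chr1:82448423-82586849), which is transcribed away from Col4a3 from the other side of the stretch printed above, ranged from 103 to 158 CPM in GFP+-RPE with a median of 146, was at 111, 184, 172, 199 and 139 CPM in the peripheral GFP–-RPE of the same mice, and ranged from 32.9 to 187 with a median of 94.8 in central GFP–-RPE. Both genes had at least 10 counts in every library, and per length Col4a3 exceeded Col4a4 in 16 of 17, with group medians of the ratio of 2.30 in GFP+-RPE, 1.84 in peripheral and 2.58 in central GFP–-RPE.

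Col4a5 (chrX:141475385-141689234), the third chain of that trimer, was far lower. It ranged from 1.94 to 16.9 CPM in GFP+-RPE with a median of 11.5, and was at 3.96, 29.6, 8.28, 31.8 and 13.9 CPM in peripheral GFP–-RPE of mice 1, 2, 4, 5 and 7. In central GFP–-RPE it was split: mice 2 and 6 had 15.3 and 19.5 CPM, and mice 1, 4, 5 and 7 at most 0.18 CPM. Col4a6, its head-to-head neighbor on the X chromosome, had at most 1 count in any library. The difference of peripheral from central GFP–-RPE in Col4a5 was 1.59 on the log2 scale with an SE of 1.69. With the mouse as a replicate block, the unadjusted p of Col4a5, Col4a4 and Col9a3 came under 0.05 in this comparison, beside that of Col8a2, with an adjusted p of 0.996 for each of the 4.

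**Figure D3:**
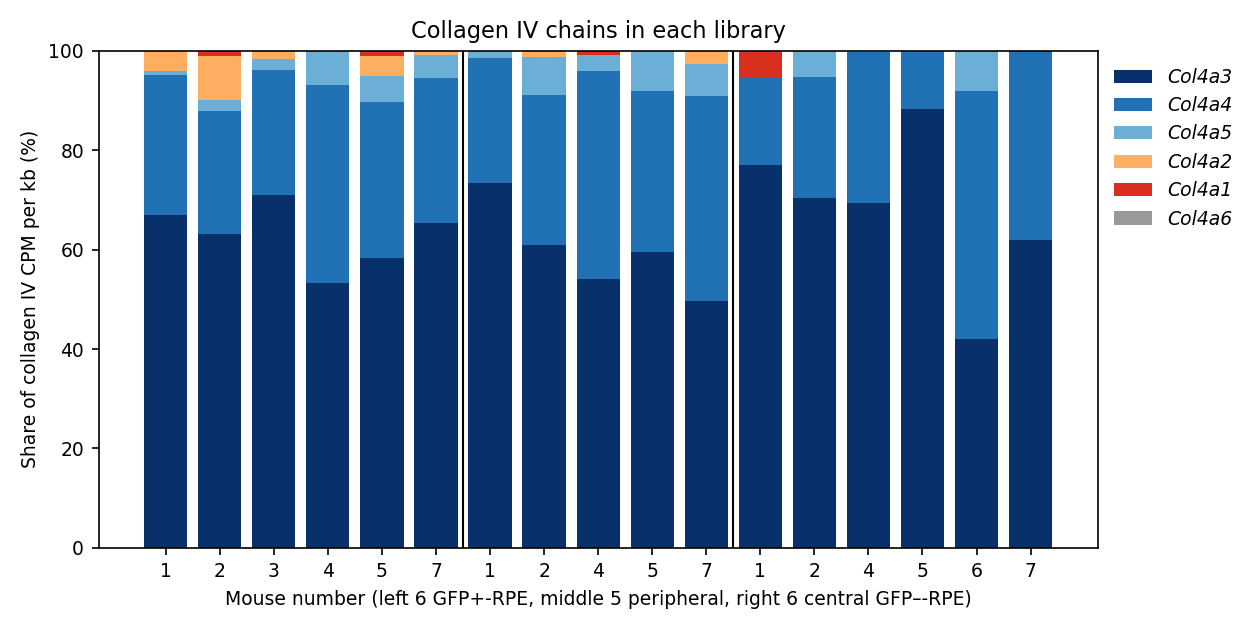
Share of each chain in the collagen IV message of a library, in percent of summed CPM per kilobase. Col4a3 and Col4a4 fill most of every bar, Col4a2 shows in 5 of the 6 GFP+ libraries, and Col4a1 reaches its largest share, 5.39%, in the central library of mouse 1.

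Col4a2 (chr8:11312805-11449287), of the trimer of nearly all basement membranes, was present in most GFP+ libraries and at the floor in central ones, and it was singled out after its values were seen. In GFP+-RPE it had 256, 491, 151, 0, 187 and 60 counts in mice 1, 2, 3, 4, 5 and 7. In peripheral GFP–-RPE it had 95 and 54 counts in mice 2 and 7 and 0 in the other 3 libraries, and in central GFP–-RPE 3, 0, 3, 0, 0 and 0 counts. The central libraries were thus all at or under the floor of 3 counts, and mouse 4 kept the ranges of GFP+ and central GFP–-RPE from being apart. The means of 9.33 ± 8.32 CPM (SD, n = 6) in GFP+-RPE and 2.05 ± 2.81 (SD, n = 5) in peripheral GFP–-RPE gave a log2 fold change of 2.25 (SE 1.84, edgeR's adjusted p = 1.00). Against central GFP–-RPE with every library set at the floor, the GFP+ mean was at least 30.6-fold higher. The filter on low counts removed the gene from that comparison. Without the filter, edgeR gave a log2 fold change of 6.61 with an adjusted p of 0.184, which is no call, whereas DESeq2 gave an adjusted p of 0.0012, which is one. Over all settings with a value, the adjusted p ran from 0.0012 to 0.392. Its partner Col4a1 had at least 10 counts in 4 libraries (GFP+ of mice 2 and 5, peripheral of mouse 4 and central of mouse 1), and both genes reached 10 counts together in only 2. The 2 genes overlap at their starts on opposite strands, and the use of strand in the counting was not given.

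Laminin message was led by the beta chains. Lamb1 (chr12:31265234-31329644) ranged from 37.3 to 132 CPM in GFP+-RPE with a median of 65.1. It was at 42.5, 55.7, 32.2, 18.4 and 16.01 CPM in peripheral GFP–-RPE of mice 1, 2, 4, 5 and 7, and in central GFP–-RPE it ranged from 0.37 to 104 CPM with a median of 38.5. The GFP+ mean of 75.9 ± 37.8 (SD, n = 6) was above the peripheral mean of 33.0 ± 16.6 (SD, n = 5) by 1.23 on the log2 scale (SE 0.43, edgeR's adjusted p = 0.684), which is no call. The ranges overlapped, as GFP+ mice 1 and 4 lay below the peripheral library of mouse 2. Within mice 1 to 3 the groups overlapped, and within mice 4 to 7 they did not (45.1 to 132 against 16.01 to 32.2 CPM). The replicate block left the value at 1.22 (adjusted p = 0.682). Against central GFP–-RPE the log2 fold change was 0.89 with an SE of 0.81.

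Lamb2, the other beta chain, ranged from 7.64 to 23.7 CPM in GFP+-RPE with a median of 18.4, was at 18.2, 11.5, 9.24, 41.9 and 15.8 CPM in peripheral GFP–-RPE of mice 1, 2, 4, 5 and 7, and ranged from 0 to 34.4 in central GFP–-RPE. Of the gamma chains, Lamc1 had 211 to 325 counts in 3 libraries (GFP+ of mice 1 and 5 and central of mouse 1), 126 in the peripheral library of mouse 1, 18 and 10 in the peripheral and GFP+ libraries of mouse 2, and fewer than 10 in the other 11. Of the 5 alpha chains only Lama5 reached 10 counts, with 72, 36 and 37 counts in GFP+ of mice 1 and 4 and central of mouse 1. Lama1, Lama2, Lama3 and Lama4 had at most 4 counts in any library. A full set of alpha, beta and gamma message at 10 counts or more was present in 2 libraries, GFP+ and central of mouse 1. Lamb3 reached 10 counts in at least 1 library, and Lamc3 did not.

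Of the proteins that link the networks, only nidogen-2 was present throughout. Nid2 (chr14:19751265-19811787) ranged from 32.2 to 178 CPM in GFP+-RPE with a median of 55.4. It was at 69.4, 47.2, 77.4, 37.3 and 61.4 CPM in peripheral GFP–-RPE of mice 1, 2, 4, 5 and 7, and in central GFP–-RPE at 39.4 to 66.4 CPM in 5 libraries and at 2.96 in that of mouse 5. The groups overlapped. Nid1, its paralog, had no count in any of the 17 libraries. The proteoglycans were detected in some libraries and not in others. Agrin (Agrn) reached 10 counts in 7 libraries of all 3 groups, with its highest counts in GFP+ and central libraries of mouse 1 (317 and 234). Perlecan (Hspg2) had its highest counts in GFP+ of mouse 1 (123) and central of mouse 2 (85) and 0 counts in 6 libraries. Col18a1 (chr10:77052178-77166548), a proteoglycan collagen of basement membranes and the source of endostatin, ranged from 76.3 to 184 CPM in GFP+-RPE with a median of 95.5, was at 84.8, 108, 123, 72.2 and 75.6 CPM in peripheral GFP–-RPE, and ranged from 14.8 to 92.5 with a median of 66.9 in central GFP–-RPE. Its relative Col15a1 had at most 6 counts.

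Sparc, which binds collagen and takes part in its assembly, ranged from 240 to 588 CPM in GFP+-RPE with a median of 440. It was at 329, 423, 331, 234 and 503 CPM in peripheral GFP–-RPE of mice 1, 2, 4, 5 and 7. In central GFP–-RPE 5 libraries lay between 211 and 342 CPM, and that of mouse 5 was at 4.62. The log2 fold change of GFP+-RPE against central GFP–-RPE was 0.78 (SE 0.54) and that against peripheral GFP–-RPE 0.28 (SE 0.24), neither of them past the test. Fbn1, which encodes the microfibril protein fibrillin-1, ranged from 30.9 to 124 CPM in GFP+-RPE with a median of 58.4, was at 74.2, 103, 86.4, 67.5 and 76.6 CPM in peripheral GFP–-RPE, and ranged from 5.36 to 90.3 with a median of 25.1 in central GFP–-RPE. Only the central library of mouse 7 reached the peripheral range, and the log2 fold change of peripheral against central was 1.11 (SE 0.64, edgeR's adjusted p = 1.00). Fibronectin (Fn1) had at most 1 count in any library.

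Col9a3 belongs to a fibril-associated collagen best known from cartilage and the vitreous. It ranged from 180 to 425 CPM in GFP+-RPE with a median of 351, was at 315, 306, 436, 638 and 498 CPM in peripheral GFP–-RPE of mice 1, 2, 4, 5 and 7, and in central GFP–-RPE lay between 207 and 293 CPM in 5 libraries and at 590 in mouse 6. In GFP+-RPE mice 1 to 3 were at 180 to 305 CPM and mice 4, 5 and 7 at 398 to 425, the same order of runs as for Col8a2. In peripheral GFP–-RPE too, mice 1 and 2 (315 and 306 CPM) lay below mice 4, 5 and 7 (436 to 638 CPM). The partner chains of collagen IX were not seen at a like level: Col9a2 stayed under 10 counts in every library, and Col9a1 was at 0 in most libraries with 23.3 CPM in the central library of mouse 5. No comparison of Col9a3 passed the test, and the log2 fold change of GFP+-RPE against peripheral GFP–-RPE was −0.41 (SE 0.27). Col9a3 overlaps Tcfl5 on the opposite strand.

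Among the fibril-forming collagens, Col5a2 (chr1:45374321-45503282), a chain of the collagen that starts and limits collagen fibrils, was nearly absent from GFP+-RPE. It had 4 counts in GFP+ of mouse 3 and 0 in the other 5 GFP+ libraries. In peripheral GFP–-RPE it had 109, 169, 82, 13 and 38 counts in mice 1, 2, 4, 5 and 7, or 6.07, 8.76, 3.95, 1.03 and 3.76 CPM. In central GFP–-RPE it had 72, 89, 372, 1, 1 and 14 counts in mice 1, 2, 4, 5, 6 and 7. The ranges of GFP+ and peripheral GFP–-RPE did not overlap, as was so for 1.29% of all genes tested. GFP+ mouse 3 (0.18 CPM) lay above central mouse 6 (0.07 CPM). The gene passed the filter on low counts of GFP+ against peripheral GFP–-RPE through the peripheral libraries alone. The ranges and the values below are therefore a description and no separate support. With every GFP+ library set at its own count or at 3 counts, whichever was higher, the peripheral mean was 27.8 times the GFP+ mean. The fitted log2 fold change of GFP+-RPE against peripheral GFP–-RPE was −6.94 (SE 1.66), a value that depends on the prior count. edgeR gave an adjusted p of 0.304, which is no call, and DESeq2 an adjusted p of 0.00012, which is one. With the mouse as a replicate block the adjusted p was 0.489, and over all settings the adjusted p ran from 0.00012 to 0.902.

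The other fibrillar collagens were rare. Col1a1 had 0 to 11 counts, Col3a1 at most 8, and Col1a2 and Col2a1 at most 1 count in any library. Pdgfra, Dcn and Dpt, fibroblast markers named above, were at or near 0 in the same libraries, whereas Ogn was at 9.68 to 260 CPM. Col11a1 was seen in 4 of 6 GFP+ libraries (72, 73, 172 and 260 counts in mice 3, 4, 5 and 7), in the peripheral library of mouse 1 (59 counts) and in the central library of mouse 4 (189 counts), with 7 counts or fewer elsewhere. Its log2 fold change of GFP+-RPE against peripheral GFP–-RPE was 3.01 with an SE of 2.10. Single libraries also held most of the counts of Col6a3 (339 counts in central mouse 6, at most 16 elsewhere) and of Col7a1, the anchoring fibril collagen (74 and 117 counts in GFP+ mice 3 and 4, at most 18 elsewhere). Of the transmembrane collagens, Col13a1 led with at most 3 counts. The other members that reached 10 counts in 1 to 8 libraries were Col5a1, Col5a3, Col6a5, Col11a2, Col12a1, Col20a1, Col22a1, Col27a1 and Fbn2, none of them over 6.38 CPM in any library. Those under 10 counts throughout, beside the ones already named, included Col10a1, Col14a1, Col16a1, Col17a1, Col19a1, Col24a1, Col25a1, Col26a1, Col28a1, Col6a4 and Col6a6.

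**Figure D4:**
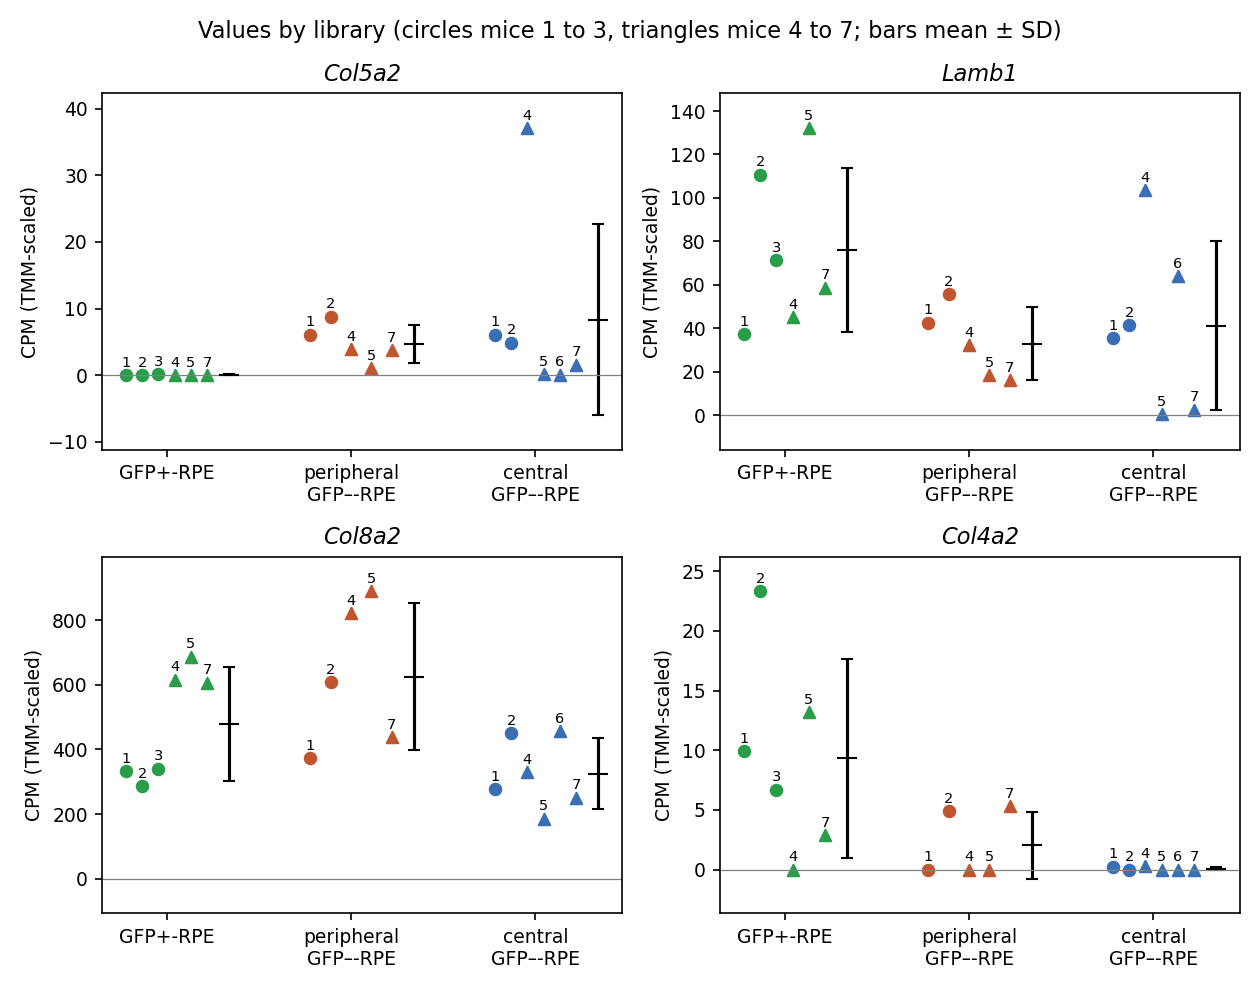
CPM by library for Col5a2, Lamb1, Col8a2 and Col4a2, with the mouse number at each point, circles for mice 1 to 3 and triangles for mice 4 to 7, and bars for the mean ± SD of a group. Col5a2 is at or near 0 in all 6 GFP+ libraries and above 1 CPM in the 5 peripheral GFP–-RPE libraries, while the groups overlap for the other 3 genes in at least 1 library.

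The question behind the 3 groups was whether cells that use Serpine3 differ from their neighbors in the periphery and from central cells. For the members, no call was made by edgeR in any of the 3 comparisons, where a call needed a log2 fold change beyond 1 in either direction and a p under 0.01 after Benjamini-Hochberg adjustment. In GFP+-RPE against central GFP–-RPE, 12 of the 63 members passed the filter on low counts and 0 were called, beside 0.0431% of 9286 genes. None of the 12 reached an unadjusted p under 0.05, which 5.8% of all genes did, and none had ranges that did not overlap, as 1.13% of all genes had. DESeq2 gave 30 members an adjusted p and called 2, Col4a2 higher and Col5a2 lower in GFP+-RPE, beside 1.71% of all genes. The log2 fold changes of the 12 members ran from 0.04 to 0.91, all above 0, with a median of 0.61, while the median of all genes was 0.00. This direction held only for the members that passed the filter, which can let a gene in through 1 group. Col4a5, at 0.91, had 10 counts in 6 of 6 GFP+ and 2 of 6 central libraries. The filter removed Col5a2 (0 of 6 GFP+ and 4 of 6 central libraries) and Col4a2 (5 of 6 and 0 of 6). With low members included the median was −1.09 by edgeR without the filter and −1.22 by DESeq2. The medians of all genes under these settings are not given here. Some of the added members had hardly a count, and their fitted values depend on the prior count. Col14a1, with 1 count in central mouse 6 and 0 in every GFP+ library, was at −1.40 by edgeR without the filter.

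In GFP+-RPE against peripheral GFP–-RPE, 16 members passed the filter and 0 were called by edgeR, beside 0.0396% of 10102 genes. An unadjusted p under 0.05 was reached by 2 of them, Lamb1 higher and Col5a2 lower in GFP+-RPE, beside 5.58% of all genes, and 1 (Col5a2) had ranges that did not overlap, beside 1.29%. Col5a2 passed the filter only through peripheral libraries, with 10 counts in 5 of 5 of them and in 0 of 6 GFP+ libraries. DESeq2 called 1 of 39 members, Col5a2, beside 0.442% of all genes. The median log2 fold change of the 16 members was −0.01 and that of all genes 0.01; without the filter the members' median was −0.35, and by DESeq2 −0.37. In peripheral against central GFP–-RPE, 14 members passed the filter and 0 were called by edgeR, beside 0% of 9535 genes. An unadjusted p under 0.05 was reached by 1 of them, Col8a2, beside 2.7% of all genes, and 0 had ranges that did not overlap, beside 0.755%. DESeq2 called 0 of 48 members, beside 0.171% of all genes. The median of the 14 members was 0.47 and that of all genes 0.01. Without the filter the members' median was −0.62, and by DESeq2 −0.72. For these 2 comparisons too, the medians of all genes without the filter and by DESeq2 are not given here. The counts of members are too small to set them apart from other genes. The comparisons share libraries, so that their values are not independent of each other.

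**Figure D5:**
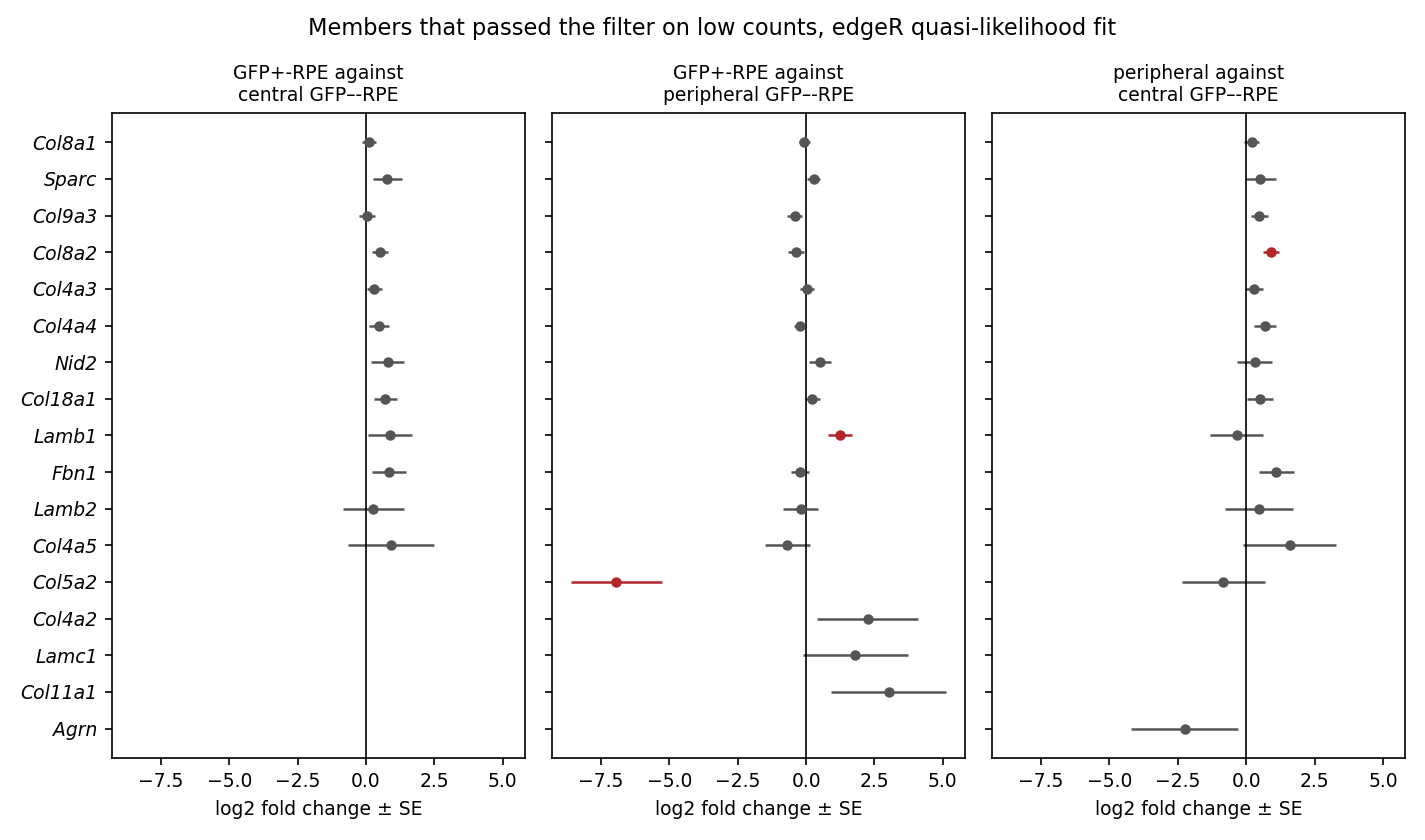
Log2 fold changes with SE of the members that passed the filter on low counts, by comparison, from the edgeR fit; red marks an unadjusted p under 0.05. Most points in the outer panels lie right of 0 with bars that reach near or across it, and Col5a2 stands alone at −6.94 in the middle panel.

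The share of all counts taken by the 63 members was 0.325% to 0.395% in GFP+-RPE, 0.250% to 0.386% in peripheral GFP–-RPE and 0.0768% to 0.321% in central GFP–-RPE. The lowest 3 values were those of central mice 5, 7 and 4 (0.0768%, 0.129% and 0.171%), the libraries with the highest mitochondrial shares (47.3%, 37.0% and 32.4%). With mitochondrial genes left out of the total, the members took 0.342% to 0.422% in GFP+-RPE, 0.321% to 0.481% in peripheral and 0.146% to 0.413% in central GFP–-RPE. The 15 RPE identity genes took 8.58% to 10.8%, 6.06% to 9.45% and 3.14% to 9.59% of the counts in the same order. The part of the mitochondrial share in the members' levels was not tested, and in pools of cells a smaller number of expressing cells and less RNA per cell cannot be told apart.

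Genes that handle these proteins were taken from 4 lists. Of 36 genes of collagen folding and processing, 21 passed the filter against central GFP–-RPE, of which 1 had an unadjusted p under 0.05, beside 5.8% of all genes: Pcolce, the enhancer of procollagen C-proteinase, at 602 ± 271 CPM in GFP+ and 306 ± 81.6 CPM in central libraries (SD, n = 6 each), which is 0.92 on the log2 scale (SE 0.30, adjusted p = 0.338). Against peripheral GFP–-RPE 3 of 21 did so, beside 5.58% of all genes. P4hb, the protein disulfide isomerase that is the beta subunit of prolyl 4-hydroxylase, was at 264 ± 164 CPM in GFP+-RPE (SD, n = 6) and 89.6 ± 23.7 in peripheral GFP–-RPE (SD, n = 5), a log2 fold change of 1.59 (SE 0.38, adjusted p = 0.305). Sec13, a coat protein of vesicles that leave the endoplasmic reticulum, and Loxl1, a lysyl oxidase-like enzyme, had log2 fold changes of 0.86 and −1.01, with adjusted p of 0.708 and 0.865, so that neither was a call. In peripheral against central GFP–-RPE 0 of 21 had a p under 0.05, beside 2.7%.

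Of 27 matrix receptors, 14, 19 and 15 passed the filter in the 3 comparisons, in the order used above, and 1, 3 and 0 had an unadjusted p under 0.05, beside 5.8%, 5.58% and 2.7% of all genes. Itgav, the integrin alpha-v chain, was at 427 ± 83.3 CPM in GFP+-RPE (SD, n = 6), 674 ± 187 in peripheral (SD, n = 5) and 625 ± 117 in central GFP–-RPE (SD, n = 6), with log2 fold changes of −0.65 (SE 0.22, adjusted p = 0.657) and −0.63 (SE 0.21, adjusted p = 0.406). The syndecan Sdc2 was higher in GFP+ than in peripheral GFP–-RPE by 0.54 (SE 0.20, adjusted p = 0.708) with ranges that did not overlap, 213 to 298 CPM against 126 to 208, as 1.29% of all genes had. Itga5, a chain of the fibronectin receptor, was at 0.10 ± 0.25 CPM in GFP+-RPE and 3.67 ± 2.20 in peripheral GFP–-RPE (adjusted p = 0.708). It was at 0.62 CPM in GFP+ mouse 3 and at 0 in the other GFP+ libraries. The ranges overlapped, as peripheral mouse 5 was at 0. Central mice 4, 5, 6 and 7 were at 0 too, with 2.52 and 3.52 CPM in central mice 1 and 2.

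Of 23 genes of matrix turnover and its inhibitors, 4, 7 and 6 passed the filter and 2, 0 and 0 had an unadjusted p under 0.05, beside the same shares of all genes (5.8%, 5.58% and 2.7%). Both were metalloproteinase inhibitors with higher values in GFP+ than in central GFP–-RPE. Timp3, which is held in Bruch membrane, was at 5124 ± 727 against 3503 ± 1078 CPM (log2 fold change 0.50, SE 0.21, adjusted p = 0.712), and Timp2 at 197 ± 47.1 against 101 ± 32.6 CPM (0.89, SE 0.31, adjusted p = 0.422; SD, n = 6 each). Of 40 other basement membrane and Bruch membrane proteins, 12, 13 and 14 passed the filter and 0, 2 and 2 had such a p, beside the same shares. C1qtnf5, a secreted RPE protein mutated in late-onset retinal degeneration, was at 247 ± 71.2 CPM in peripheral (SD, n = 5), 132 ± 64.9 in GFP+ and 107 ± 54.8 in central GFP–-RPE (SD, n = 6 each). Its peripheral and central ranges did not overlap, as was so for 0.755% of all genes (log2 fold change 1.15, SE 0.41, adjusted p = 1.00). Npnt, the integrin ligand nephronectin, and Fbln7, a fibulin, were low genes, with 0.72 ± 1.68 CPM of Npnt in GFP+ against 11.3 ± 11.2 in peripheral and 0.44 ± 0.51 CPM of Fbln7 in peripheral against 7.13 ± 7.22 in central GFP–-RPE. In GFP+-RPE, Npnt was at 4.15 CPM in mouse 7 and at most 0.14 in the other libraries. The ranges of both genes overlapped in these comparisons. No gene of the 4 lists was called by edgeR.

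The summed levels of markers of other cells are given for the same libraries, in the order GFP+, peripheral GFP– and central GFP–-RPE. Fibroblast and choroid stroma genes summed to 84.0 to 265, 49.5 to 161 and 15.3 to 129 CPM, of which most was Ogn. Endothelial genes summed to 7.97 to 27.0, 1.27 to 26.0 and 0.33 to 17.04 CPM, led by Plvap at a mean of 6.67 CPM. Of the 12, 6 had at most 3 counts in any library. Pericyte and smooth muscle genes summed to 169 to 567, 149 to 247 and 117 to 326 CPM, led by Acta2, with Myh11, Des and Cnn1 at most 3 counts. Melanocyte and Schwann cell genes (70.1 to 108, 63.4 to 156 and 39.5 to 265 CPM) were led by Sox10, macrophage genes (38.1 to 111, 105 to 146 and 68.4 to 116 CPM) by Csf1r with 9 of 12 at most 3 counts, and photoreceptor genes (88.1 to 166, 108 to 175 and 123 to 303 CPM) by Rom1. Mueller glia genes, some of which the RPE also uses, were led by Clu and summed to 11934 to 18521, 8051 to 18788 and 9100 to 16865 CPM. Genes of ciliary and iris epithelium (at most 101 CPM) and of red blood cells (at most 15.0 CPM) were low. In GFP+-RPE against peripheral GFP–-RPE, the marker genes of other cells with an unadjusted p under 0.05 were Ogn (log2 fold change 1.24, edgeR's adjusted p = 0.640), Acta2 (0.93, adjusted p = 0.708), Csf1r (−1.01, adjusted p = 0.562) and Vim of the Mueller glia list. Vim was called, at 2.33 (adjusted p = 0.0039), with ranges that did not overlap. Against central GFP–-RPE, Clu (0.77, adjusted p = 0.534) and Vim (1.12, adjusted p = 0.420) were higher and Pde6a of photoreceptors (−3.10, adjusted p = 0.150) lower in GFP+-RPE at an unadjusted p under 0.05, and none was called. In peripheral against central GFP–-RPE, Pde6a (−1.97) and Vim (−1.19) had such a p, each with an adjusted p of 1.00. Of the 15 RPE identity genes, 13 passed the filter in each comparison. In GFP+-RPE against central GFP–-RPE, 4 of them had an unadjusted p under 0.05 in edgeR, beside 5.8% of all genes. Against peripheral GFP–-RPE 2 did so, beside 5.58%, and in peripheral against central GFP–-RPE 1, beside 2.7%. All were lower in the group named first, and 0 were called. The part of other cells in the members' values was not tested.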

How the data were processed

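The authors deposited estimated counts per gene symbol for 17 SMART-Seq libraries, as whole numbers without normalization. The labels' processing notes name fastp, Salmon and GRCm38.p6; versions, annotation and use of strand were not given in the sources used here. All 17 columns were matched to samples by library name. CPM values used TMM scaling over all libraries, and exonic lengths came from GENCODE M21.

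Comparisons used edgeR (version 4.0.16; R version 4.3.3) with its default filter, TMM and the quasi-likelihood test on all genes of the groups compared. The SE is the log2 fold change divided by the square root of the F statistic. DESeq2 (version 1.42.0), which the study's methods name, was an alternative. The code was tested on simulated counts. The members and lists were chosen with earlier results of these data known. Named were the 12 members with the highest CPM per kb, the leader of each role, trimer partners, members with p under 0.05 or ranges apart, and in each list up to 3 genes of lowest p per direction.

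Libraries with the same mouse number came from the same animal or pool. Over 15 such pairs, deviations from the group means of log2(CPM + 1) correlated between −0.016 and 0.101. No library was a copy of another (highest correlation 0.924). P-values measure the spread between these libraries. Floors of 3 counts cover counting error only, as PCR copies were counted. Not every member is reported by name.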

Additional observations from a re-analysis of the deposited data

Results flagged for a closer look

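Among 39 groups of values (13 members in 3 groups), 6 held a library far from the others by Dixon's ratio. Chance alone does this in about 1 of 20 groups of normally distributed values. The CPM values were not shown to be so distributed, and the 6 groups cannot be set against that rate. Where only 1 library is above 0, as for Col5a2 in GFP+-RPE, the ratio is 1 whatever the count. In central GFP–-RPE, Col8a1 was at 1612 CPM in mouse 1 and at 544 to 937 in the other libraries, Col9a3 at 590 CPM in mouse 6 against 207 to 293, and Col5a2 at 37.1 CPM in mouse 4 against 0.07 to 6.06. In GFP+-RPE, Col18a1 was at 184 CPM in mouse 7 against 76.3 to 98.3, and Col5a2 at 0.18 CPM, or 4 counts, in mouse 3 against 0 in the others. In peripheral GFP–-RPE, Lamb2 was at 41.9 CPM in mouse 5 against 9.24 to 18.2.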

How the results depend on the processing

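With DESeq2 the count of members called rose from 0 to 2 for GFP+-RPE against central GFP–-RPE and from 0 to 1 for GFP+-RPE against peripheral GFP–-RPE, and remained 0 for peripheral against central GFP–-RPE; every other setting called 0 members in each comparison. Members at an unadjusted p under 0.05 numbered 0, 2 and 1 in the 3 comparisons in this order. For the first they became 8 with DESeq2, 18 with no filter, 1 with a filter of 10 counts in 5 libraries and 2 with all 3 groups in the fit. For the second they became 11 with no filter and 1 with all 3 groups. For the third they became 4 with DESeq2, 11 with no filter, 2 with all 3 groups and 4 with the mouse as replicate block. With 1 library left out they ranged from 0 to 2 for the first comparison (2 without central mouse 5 or 7), from 2 to 3 for the second and from 1 to 3 for the third (3 without central mouse 6 and 2 without central mouse 7). Members whose ranges did not overlap went from 0 to 1 in the first comparison without GFP+ mouse 2 or 5 and in the third without central mouse 6 or 7, and remained at 1 in the second. The share of all genes that did the same under each of these settings is not given here. These counts therefore cannot set the members apart from other genes. More genes enter the settings without the filter, with 18358, 17908 and 18978 tested by edgeR against 9286, 10102 and 9535 with it. There the median log2 fold change of members was −1.09, −0.35 and −0.62 (−1.22, −0.37 and −0.72 with DESeq2), against 0.61, −0.01 and 0.47. The medians of all genes under these settings are not given here.

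Of 334 log2 fold changes of single members under other settings, 329 kept direction and side of the threshold, 1 became a call (Col5a2 with DESeq2) and 4 changed sign, all with the mouse as replicate block: Col4a3 (−0.047) and Lamb2 (0.15) for GFP+-RPE against peripheral GFP–-RPE, Col5a2 (0.31) and Lamb1 (1.13) for peripheral against central GFP–-RPE. With 1 library left out, 16 of 466 changed sign: for GFP+-RPE against central GFP–-RPE, Col8a1 ranged from −0.0076 to 0.41, Col9a3 from −0.070 to 0.28 and Lamb2 from −0.0037 to 0.72; for GFP+-RPE against peripheral GFP–-RPE, Col4a3 ranged from −0.11 to 0.17, Col8a1 from −0.16 to 0.0082 and Lamb2 from −0.38 to 0.35; for peripheral against central GFP–-RPE, Col5a2 ranged from −1.18 to 0.79, Lamb1 from −0.61 to 0.17 and Lamb2 from −0.029 to 0.94. Among the changes of sign, that of Lamb1 and that of Col5a2 in the last comparison came when central mouse 4 was left out. Of 276 levels under other scalings or with 1 library left out, 267 moved by less than 1 SD. The cause of these changes was not tested. With central GFP–-RPE libraries of 9896118 to 15963055 counts from small pools of cells, absence of a low member there says only that it was not detected in them.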
